A study of Mus musculus with 51 samples.

Results

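The Zscan4 genes are 9 of the 37525 genes listed across the 5 deposited RNA tables, and they were taken by name: every gene whose symbol starts with Zscan4. They are Zscan4a, Zscan4b, Zscan4c, Zscan4d, Zscan4e, Zscan4f, Zscan4-ps1, Zscan4-ps2 and Zscan4-ps3, and each of the 5 tables holds all 9. They lie within 819.9 kb of mouse chromosome 7 (chr7:10794242-11614112, build mm10), 4 on the plus strand and 5 on the minus strand, with a median of 100.6 kb between one gene start and the next. The deposited tables call 8 of them protein-coding and Zscan4a an unprocessed pseudogene. RefSeq (GRCm38.p6) calls 4 protein-coding (Zscan4b, Zscan4c, Zscan4d and Zscan4f) and the other 5 pseudogenes.

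RNA was measured in C57BL/6 mouse embryos with the long noncoding nucleolar RNA LoNA knocked out (KO) and in control embryos, at 18h, 20h, 22h and 24h. It was also measured in C57BL/6 mouse embryonic stem cells (mESC), labelled as resembling the two-cell embryo, with LoNA knocked down (KD) or as controls. Chromatin of 24h embryos was profiled for H3K4me3, H3K27me3 and acetylated NPM1 (AcNPM1) in KO and control embryos, and for AcNPM1 also in KO embryos given a p300 inhibitor. The comparisons ask how loss of LoNA bears on RNA levels and chromatin at this stage. The labels do not say from which event the hours are counted, how LoNA was removed, or how many embryos made up a library. The level of LoNA itself was not analysed here.

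Zscan4 genes are known in the mouse for a short burst of activity at the two-cell stage, when the embryo's own genome is first transcribed. The intact copies encode proteins with a SCAN domain and zinc fingers that are known to act in telomere lengthening and genome stability. In mESC cultures they are on in only a small and changing fraction of cells, the two-cell-like cells. Zscan4d is known as the main copy of the two-cell embryo and Zscan4c as the main copy of mESC. Upstream activators include the homeobox factor Dux (Duxf3 in these tables) and the chromatin-binding factors Dppa2 and Dppa4, which act together.

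Promoter sequences in RefSeq (GRCm38.p6) were at hand for 4 of the 9 genes. They are shown because they tell how alike these 4 copies are before and just after their starts. Each runs from 250 bases before to 50 bases after the annotated start, 5′ to 3′ on the gene's own strand, and capitals mark the 13 positions at which the 4 copies differ within the 266 bases they share.
Zscan4b, chr7:10905001-10905300, minus strand: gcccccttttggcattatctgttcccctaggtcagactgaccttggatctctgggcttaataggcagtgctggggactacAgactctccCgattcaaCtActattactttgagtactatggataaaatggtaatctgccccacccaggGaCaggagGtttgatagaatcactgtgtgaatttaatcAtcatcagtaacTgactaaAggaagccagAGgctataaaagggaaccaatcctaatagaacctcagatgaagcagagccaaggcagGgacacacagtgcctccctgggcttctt
Zscan4c, chr7:11005495-11005794, plus strand: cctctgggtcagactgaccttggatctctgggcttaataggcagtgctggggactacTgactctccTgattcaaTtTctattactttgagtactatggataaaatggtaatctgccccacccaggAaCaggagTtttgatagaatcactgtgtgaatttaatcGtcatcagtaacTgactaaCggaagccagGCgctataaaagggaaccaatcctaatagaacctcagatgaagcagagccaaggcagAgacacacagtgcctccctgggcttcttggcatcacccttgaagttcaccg
Zscan4d, chr7:11166099-11166398, minus strand: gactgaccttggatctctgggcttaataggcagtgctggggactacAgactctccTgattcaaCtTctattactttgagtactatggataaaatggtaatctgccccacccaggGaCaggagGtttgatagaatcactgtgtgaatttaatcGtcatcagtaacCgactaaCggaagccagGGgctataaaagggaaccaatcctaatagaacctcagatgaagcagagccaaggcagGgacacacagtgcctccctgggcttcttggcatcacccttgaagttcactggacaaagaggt
Zscan4f, chr7:11397665-11397964, plus strand: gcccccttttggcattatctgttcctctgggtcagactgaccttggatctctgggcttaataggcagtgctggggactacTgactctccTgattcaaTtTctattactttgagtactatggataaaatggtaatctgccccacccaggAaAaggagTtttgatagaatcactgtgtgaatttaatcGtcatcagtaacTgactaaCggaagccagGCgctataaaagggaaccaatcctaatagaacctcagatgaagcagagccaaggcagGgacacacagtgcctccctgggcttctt

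Zscan4c and Zscan4f were the closest pair, with 2 differences in 266 bases (99.2% identity). Zscan4b was the farthest from both, with 11 differences to each (95.9% identity). The longest run without a difference was 55 bases, and of all 32851 RefSeq promoters of this length it occurred in those of these 4 genes only. The TATA-box letters TATAAA stood on the gene's strand in all 4 promoters, against 8.32% of all RefSeq promoters of the same length. The letters TGATT, searched as the core of the Dux motif, stood on the gene's strand in Zscan4c, Zscan4d and Zscan4f but not in Zscan4b, against 21.3% of all RefSeq promoters. On either strand TGATT was present in all 4, against 37.0% of all RefSeq promoters, and the TGATT and TATAAA matches lay apart from each other. A match of letters is a description and not a binding site.

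The RNA libraries held 12077497 to 18286944 counts each. At 18h, 20h and 22h each group had 3 libraries with counts for 17125 to 22370 genes. At 24h each group had 2 libraries, each summed from 2 near-identical columns, with counts for only 7877 to 10167 genes. The mESC had 2 columns per group that were nearly identical, so their p-values rest on a spread close to technical. Of the maternal oocyte genes listed, which mark egg-derived RNA, 17 to 20 of 20 were tested in the embryo tables. Cumulus and granulosa markers, from the cells around the egg, summed to at most 60.1 CPM (counts scaled to the library's total, normalised with TMM factors) at 18h. At 22h they reached 317 CPM in 1 KO library. In the mESC Zfp352 and Duxf3, genes of the two-cell stage, were at or near 0. Zfp352 averaged 0.0894 CPM in KD cells and 0.0574 CPM in control cells, and Duxf3 averaged 0 CPM in KD cells and 0.0574 CPM in control cells. Other two-cell genes were present: of the 35 listed 10 were tested in mESC. The list summed to between 223 and 237 CPM in KD cells, against 264 to 284 CPM in control cells. In embryo RNA, fewer cells of a kind and less RNA per cell cannot be told apart.

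At 18h Zscan4 RNA was abundant in both genotypes, and no copy differed between KO and control beyond the spread between libraries. Summed over all 9 genes, the level was 1127, 350.3 and 540.5 CPM in KO libraries, against 202, 418 and 778 CPM in control libraries. The groups overlapped, and the spread within each genotype was wider than the gap between their means. The log2 ratio of the means was 0.53, but −0.07 without KO library 1 and 1.12 without control library 3. Differences between genotypes were tested with edgeR's quasi-likelihood test, with Benjamini-Hochberg adjustment over all genes tested and a threshold of 0.05.

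**Figure D1:**
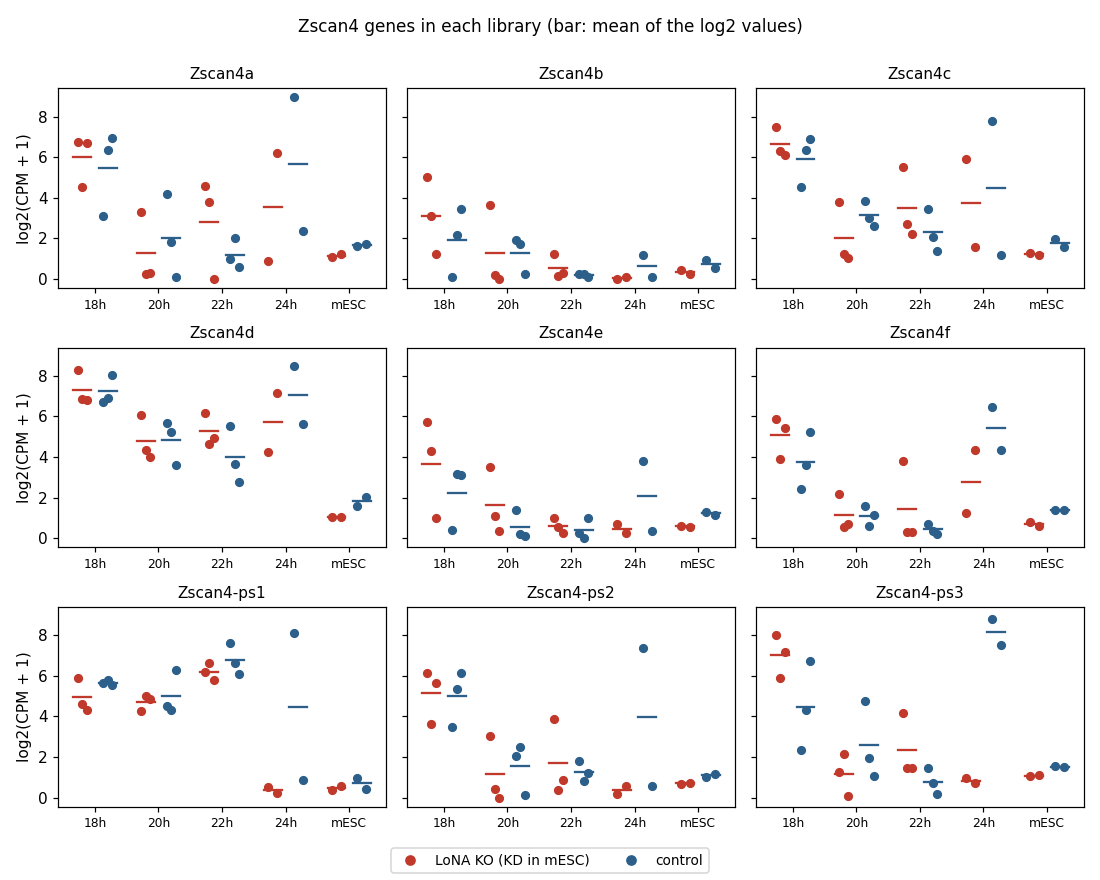
Level of each Zscan4 gene in every RNA library, as log2(CPM + 1), with LoNA KO (KD in mESC) in red to the left of control in blue at each time and in mESC. Short bars are means of the log2 values. 8 of the 9 genes were highest at 18h among the 18h, 20h and 22h groups in both genotypes, while Zscan4-ps1 was highest at 22h.

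Zscan4d, the main copy of the two-cell embryo, had 311.4, 116 and 112 CPM in 18h KO libraries, against 105, 119.7 and 265 CPM in control libraries. KO library 1 and control library 3 were the highest, and the ranges overlapped. Zscan4c, a protein-coding copy, had 181, 78.2 and 69.1 CPM in KO libraries, against 21.9, 81.5 and 117 CPM in control libraries. Zscan4f, its closest relative by promoter, had 57.0, 14.2 and 42.9 CPM in KO libraries, against 4.34, 11.3 and 36.1 CPM in control libraries. For all of these copies the KO and control ranges overlapped. Zscan4-ps3, named as a pseudogene, had 259.7, 59.0 and 145 CPM in KO libraries, against 4.03, 18.6 and 104 CPM in control libraries.

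The log2 change of Zscan4-ps3 at 18h was 1.87 ± 0.92 (SE), with an adjusted p of 0.969 (0.0667 unadjusted) by edgeR's quasi-likelihood test. That was the lowest p of the 9 genes. Zscan4e had the largest change, 2.14 ± 1.19, with an adjusted p of 0.9999. The log2 changes of the 9 genes ran between −0.57, for Zscan4-ps1, and 2.14, with a median of 0.57, against a median of −0.02 over all 15416 genes tested. The change was above 0 for 8 of the 9, against 48.8% of all genes tested. This lean rested on single libraries: without KO library 1 it was 4 of 9 with a median of −0.00, and without control library 1 it was 5 of 9 with a median of 0.11. Zscan4b and Zscan4e passed the filter on low counts through the KO libraries alone, so their direction was partly set by the filter. None of the 9 was called, and 0.00649% of all genes were (1 gene; 793 had p under 0.05 before adjustment). None had groups that did not overlap, while 12.8% of all genes tested did. Without the filter on low counts Zscan4-ps3 was called at 18h by edgeR (adjusted p = 0.000633), where 72 of 29039 genes were called. DESeq2 called no Zscan4 gene, against 98 of 28844 genes in all.

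By 20h the Zscan4 level was low in both genotypes. The sum over the 9 genes was 141, 57.7 and 44.8 CPM in KO libraries, against 138, 75.5 and 95.2 CPM in control libraries. Library 1 was the highest in each genotype, and the groups overlapped. Zscan4d had 66.7, 19.2 and 15.0 CPM in KO libraries, against 50.3, 36.8 and 11.4 CPM in control libraries. Zscan4c had 12.7, 1.39 and 1.06 CPM in KO libraries, against 13.6, 6.96 and 5.16 CPM in control libraries. For both copies library 1 was the highest of each genotype and the ranges overlapped. Zscan4-ps3 had 1.39, 3.37 and 0.0705 CPM in KO libraries, against 26.0, 2.91 and 1.10 CPM in control libraries.

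The log2 changes at 20h had a median of −0.08 over the 9 genes and of −0.03 over all 14524 genes tested. They ran between −2.63 ± 1.37 (SE) for Zscan4-ps3 and 2.67 ± 1.73 for Zscan4e. Of the 9 changes 4 were above 0, against 48.4% of all genes. Zscan4-ps3 passed the filter on low counts through the control libraries alone, so its direction was partly set by the filter. Without KO library 1 the median was −2.52, with 1 of the 9 above 0, and with the column number as a replicate block it was −1.25, also with 1 of the 9 above 0. No Zscan4 gene was called, against 0.0138% of all genes tested, and each adjusted p was 0.998 by edgeR's quasi-likelihood test. In all 2 genes were called, and 532 had p under 0.05 before adjustment. No Zscan4 gene was called by DESeq2, against 32 of 25858 genes. No copy had groups that did not overlap, against 9.87% of all genes. Leaving out KO library 1 changed the log2 ratio of the summed level to −1.01, against −0.35 with all libraries.

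At 22h, the sum over the 9 genes was 258, 143 and 91.3 CPM in KO libraries, against 259, 119 and 76.5 CPM in control libraries. These sums nearly coincided (log2 ratio 0.12, but −0.37 without KO library 1 and 0.75 without control library 1). Without Zscan4-ps1 the sum of the other 8 genes was 186, 45.5 and 37.1 CPM in KO libraries, against 61.6, 19.8 and 10.5 CPM in control libraries, a log2 ratio of 1.54, which was 0.43 without KO library 1 and 2.56 without control library 1. Zscan4-ps1 alone had 72.7, 97.9 and 54.2 CPM in KO libraries, against 197, 98.7 and 66.1 CPM in control libraries. The ranges of KO and control overlapped for both quantities. This split was added after the pattern of Zscan4-ps1 over time was seen.

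Of the 9 genes 6 passed the filter on low counts at 22h, and Zscan4b, Zscan4e and Zscan4f did not. Zscan4c had 44.9, 5.45 and 3.68 CPM in KO libraries, against 10.01, 3.15 and 1.62 CPM in control libraries. Zscan4a, the copy both annotations call a pseudogene, had 23.0, 13.0 and 0 CPM in KO libraries, against 0.962, 3.03 and 0.521 CPM in control libraries. KO library 1 was the highest of the 6 libraries for both genes, and KO library 3 had no Zscan4a read. Zscan4-ps3 had 17.0, 1.72 and 1.78 CPM in KO libraries, against 1.73, 0.653 and 0.116 CPM in control libraries. The log2 changes were 3.03 ± 1.13 (SE) for Zscan4-ps3, with an unadjusted p of 0.0218, and 2.99 ± 1.34 for Zscan4a, with an unadjusted p of 0.0484.

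The adjusted p of each of the 6 genes at 22h was 0.99996 by edgeR's quasi-likelihood test, so none was called, against 0.00656% of all 15251 genes tested (1 gene; 481 had p under 0.05 before adjustment). The change was above 0 for 5 of 6 genes, against 49.8% of all genes, with a median of 1.78, against 0.00 over all genes. Without KO library 1 it was 3 of 6, with a median of 0.13. Zscan4-ps3 passed the filter on low counts through the KO libraries alone and Zscan4-ps2 through the control libraries alone. No Zscan4 gene had groups that did not overlap, against 9.23% of all genes. Without the filter on low counts Zscan4a was called at 22h by edgeR (adjusted p = 0.00303), where 33 of 28777 genes were called. DESeq2 called no Zscan4 gene, against 4 of 28710 genes in all. Cumulus and granulosa markers summed to between 59.6 and 317 CPM in the 22h KO libraries, against 54.0 to 107 CPM in the control libraries, and their part in the Zscan4 values was not tested.

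**Figure D2:**
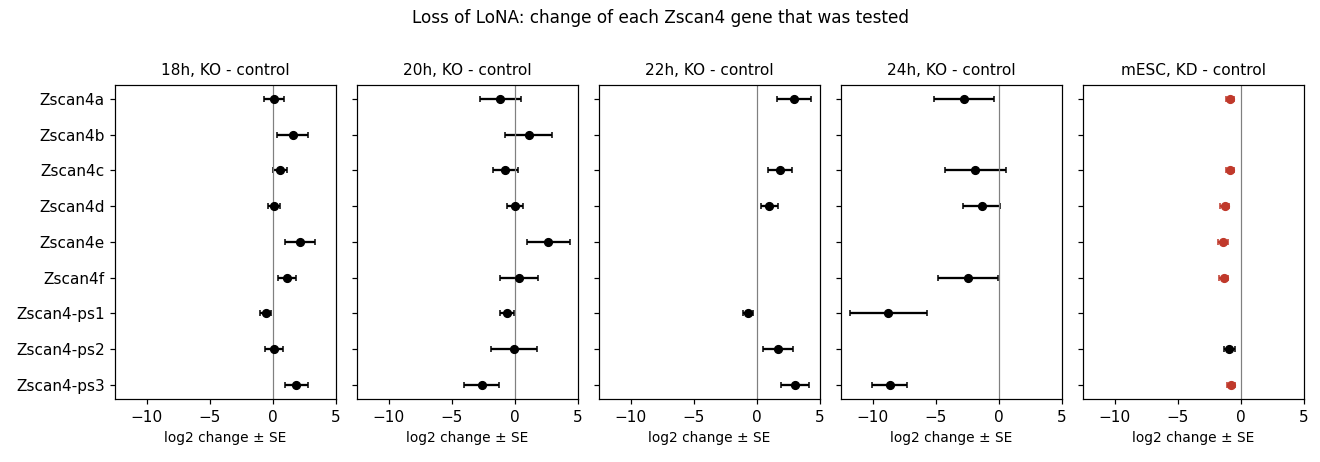
Log2 change ± SE of each tested Zscan4 gene, KO minus control in embryos and KD minus control in mESC, 1 panel per comparison. Red marks an adjusted p under 0.05 and black one at or above it. No embryo value was called, the largest changes were −8.78 and −8.66 at 24h, and 6 of 7 mESC values were called lower.

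At 24h no Zscan4 copy was called different between KO and control embryos by edgeR with the filter on low counts, and the libraries of each genotype differed widely from one another. The sum over the 9 genes was 81.6 and 237 CPM in KO libraries, against 2055 and 255 CPM in control libraries. Control library 1 stood far above the other 3, and both KO values were below both control values. The log2 ratio of the means was −2.86, and it was −0.68 without control library 1. Each library was also led by other copies. In KO library 1 Zscan4c held 72.4% of the Zscan4 counts, in KO library 2 Zscan4d held 59.5%, in control library 1 Zscan4a held 24.0% and in control library 2 Zscan4-ps3 held 70.9%.

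Zscan4-ps3 was the copy with the clearest gap at 24h, with 0.919 and 0.616 CPM in KO libraries, against 444.2 and 180.9 CPM in control libraries. Both control libraries were high and both KO libraries near 0. Its log2 change was −8.66 ± 1.40 (SE), with an adjusted p of 0.826 (0.000508 unadjusted) by edgeR's quasi-likelihood test. Zscan4-ps1 had 0.424 and 0.185 CPM in KO libraries, against 272 and 0.826 CPM in control libraries, so its log2 change of −8.78 ± 3.06 rested on control library 1. Zscan4d had 18.2 and 141 CPM in KO libraries, against 358 and 47.8 CPM in control libraries. Zscan4c had 59.1 and 1.97 CPM in KO libraries, against 221 and 1.31 CPM in control libraries. For Zscan4c and Zscan4d the groups overlapped.

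Of the 9 genes 6 were tested at 24h (Zscan4b, Zscan4e and Zscan4-ps2 were not), and none had a log2 change above 0, against 50.5% of all genes tested, with a median of −2.57, against 0.02 over all 7425 genes tested. Without control library 1 it was 3 of 6 above 0 with a median of −0.09, against 0.85 over all genes. Zscan4-ps1 and Zscan4-ps3 passed the filter on low counts through the control libraries alone, so the filter partly set their direction. For these and for Zscan4f, whose KO values of 1.34 and 19.1 CPM stood against control values of 89.0 and 19.3 CPM, both KO values were below both control values, and the same held for 17.3% of all genes. The edgeR test called 0 of the 6, against 0% of all genes tested, and 383 genes had p under 0.05 before adjustment. By DESeq2, calls covered 1405 of 13718 genes, among them Zscan4-ps3 (adjusted p = 0.00958), Zscan4-ps1 (0.0234) and Zscan4-ps2 (0.0395). Zscan4-ps3 was also called by edgeR without the filter on low counts (adjusted p = 0.00557), where 3 of 13718 genes were called. With all 8 columns as separate libraries it was called too (0.00260), where 823 of 6805 genes were. That setting counts near-identical columns as replicates, so its p-values rest on a spread close to technical. Without control library 2 the median log2 change was −5.05, against 0.21 over all genes. Blood cell markers summed to between 1.27 and 199.99 CPM in the 24h KO libraries, against 27.5 to 75.4 CPM in the control libraries, and their part was not tested.

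In mESC the Zscan4 genes were detected at a few reads per copy and were lower in KD cells. The sum over the 9 genes was 7.17 and 7.21 CPM in KD cells, against 15.0 and 14.3 CPM in control cells, a log2 ratio of −1.02. The groups did not overlap. Zscan4c, the main copy of mESC by repute, had 24 and 22 reads (1.40 and 1.31 CPM) in KD cells, against 51 and 35 reads (2.93 and 2.01 CPM) in control cells. Zscan4d had 18 and 18 reads (1.05 and 1.07 CPM) in KD cells, against 35 and 55 reads (2.01 and 3.16 CPM) in control cells.

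Of the 9 genes 7 were tested in mESC (Zscan4b and Zscan4-ps1 were not). By edgeR's quasi-likelihood test 6 were called lower in KD cells, against 35.3% of all 16406 genes (38.9% were called higher, 74.2% in all). The p-values rest on the spread between nearly identical columns, which is close to technical. For 7 of 7 both KD values were below both control values, against 42.4% of all genes. Zscan4e, Zscan4f and Zscan4-ps2 passed the filter on low counts through the control columns alone, so their direction was partly set by it, and the other 4 were all called. Zscan4e had the largest change, −1.42 ± 0.42 on the log2 scale (SE), with an adjusted p of 0.00446. Zscan4f changed by −1.35 ± 0.38 (adjusted p = 0.00315) and Zscan4d by −1.28 ± 0.32 (adjusted p = 0.00138). Zscan4-ps2 changed by −0.88 ± 0.41 and was not called (adjusted p = 0.0578). The median was −0.88, against 0.01 over all genes tested. DESeq2 called only Zscan4d (adjusted p = 0.0459), 1 of 9 genes, where it called 9513 of 28921 genes in all. In edgeR fits with 1 column left out, the median log2 change was −0.89 without KD column 1 and −0.97 without KD column 2. It was −1.02 without control column 1 and −1.10 without control column 2.

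The fall in mESC came beside lower levels of stem cell genes. Of the 12 listed markers of pluripotent stem cells 11 were called lower in KD cells and 0 higher, where 35.3% of all genes were called lower and 38.9% higher, and their sum was 3259 and 3366 CPM at the ends of the KD range, against 6750 and 6776 CPM at the ends of the control range. Nanog, a core pluripotency factor, averaged 165.3 ± 4.02 CPM in KD cells and 334 ± 3.46 CPM in control cells (SD, n = 2 each). Of 10 tested two-cell genes 8 were called lower and 1 higher, beside the same shares of all genes. Among the activators, Dppa4 averaged 60.3 ± 4.27 CPM in KD cells and 116 ± 4.23 CPM in control cells, a log2 change of −0.95 (adjusted p = 1.26e-12). Dppa2 averaged 64.0 ± 0.74 CPM in KD cells and 64.8 ± 0.39 CPM in control cells, with an adjusted p of 0.776. Rif1, a repressor of two-cell genes and a telomere-associated factor, averaged 219 ± 20.6 CPM in KD cells and 447 ± 15.6 CPM in control cells, with an adjusted p of 3.27e-14. The p-values of these genes rest on the same spread between nearly identical columns. The part of these changes in the Zscan4 values was not tested.

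The change over time was tested in 1 edgeR fit over the 18 libraries of the 18h, 20h and 22h tables, in which 19515 genes and all 9 Zscan4 genes were tested. Each time was deposited as a table of its own, so time and table cannot be told apart. For 22h against 18h, the log2 change was below 0 for 8 of the 9 copies in both genotypes and above 0 for Zscan4-ps1. Of these changes 1 passed the test in KO embryos and 4 in control embryos, and that of Zscan4-ps1 passed in neither.

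In control embryos, 22h against 18h, 4 of the 9 genes fell, against 0.605% of all genes tested. Zscan4f changed by −5.60 ± 1.36 on the log2 scale (SE), with an adjusted p of 0.0388. Zscan4d changed by −3.04 ± 0.74 (adjusted p = 0.0405), Zscan4-ps3 by −5.74 ± 1.41 (adjusted p = 0.0412) and Zscan4c by −3.98 ± 1.01 (adjusted p = 0.0483). The 22h control libraries held 10, 5 and 3 reads of Zscan4f and 27, 11 and 2 reads of Zscan4-ps3. The size of these changes therefore rests on few later reads. All 22h control values were below all 18h control values for 6 of the 9 genes, against 12.6% of all genes. The median log2 change of the 9 genes was −4.78, against −0.10 over all genes. These calls lay close to the threshold: none passed an adjusted p of 0.01, and leaving out control library 3 of 18h, or library 2 or 3 of 22h, left 0. Leaving out control library 1 of 22h left 1, against 55 of 21504 genes in all. Leaving out KO library 1 of 20h, which shares the estimate of spread, gave 6, against 375 of 21425 genes. DESeq2 called 7 of the 9 and the fit without a filter on low counts 8, against 1091 of 33319 and 709 of 33824 genes.

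In KO embryos, 22h against 18h, Zscan4-ps3 was the copy called, at −4.60 ± 1.30 on the log2 scale (SE, adjusted p = 0.0487), so 1 of the 9 fell, against 1.93% of all genes. The other changes below 0 ran between −5.54 for Zscan4e (adjusted p = 0.0633) and −2.20 for Zscan4d (adjusted p = 0.0924). All 22h KO values were below all 18h KO values for 7 of the 9 genes, against 11.3% of all genes. The median log2 change was −3.21, against −0.01 over all genes. DESeq2 called 5 of the 9 and the unfiltered fit 8, against 1931 of 33319 and 1258 of 33824 genes in all. With the filter edgeR called 0 without KO library 1 or 2 of 18h or KO library 2 or 3 of 22h. The same held without control library 1 or 2 of 22h. The count was 3 without KO library 1 of 22h, against 357 of 21493 genes. It was 2 without KO library 1 or 3 or control library 1 of 20h, against 885 of 21425, 824 of 21586 and 972 of 21468 genes.

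In KO embryos, 20h against 18h, Zscan4-ps3 changed by −6.56 ± 1.44 on the log2 scale (SE, adjusted p = 0.0342) and Zscan4c by −4.42 ± 1.03 (adjusted p = 0.0434), so 2 of the 9 fell, against 0.323% of all genes. The 20h KO libraries held 22, 51 and 1 reads of Zscan4-ps3 and 201, 21 and 15 reads of Zscan4c. For 6 of the 9 all 20h KO values were below all 18h KO values, against 8.37% of all genes. In control embryos, 20h against 18h, all 9 changes were below 0 with a median of −3.09, but none was called, against 0.241% of all genes called lower (2942 had p under 0.05 before adjustment). All 20h control values were below all 18h control values for 4 of the 9, against 11.3% of all genes. The lowest adjusted p was 0.128, for Zscan4c, and DESeq2 called Zscan4d and Zscan4f, against 1119 of 33319 genes in all. Leaving out KO library 1 of 20h gave 6 calls in KO embryos, against 677 of 21425 genes. Leaving out KO library 3 of 18h or KO library 2 or 3 of 20h gave 0. The count was 1 without KO library 1 of 18h (352 of 21373 genes) and 3 without KO library 1 of 22h (195 of 21493 genes).

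Between 20h and 22h no Zscan4 gene was called in either genotype by edgeR, against 8.26% of all genes called in KO embryos and 2.74% in control embryos. In KO embryos 7 of the 9 changes were above 0 with a median of 1.36, against 0.01 over all genes. Without KO library 1 of 22h it was 3 of the 9, with a median of −0.39. In control embryos 8 of the 9 were below 0 with a median of −0.90, against −0.05 over all genes. Without control library 1 of 20h it was 6 of the 9, with a median of −0.32. Whether loss of LoNA changed the course over 18h, 20h and 22h was tested as an interaction. No Zscan4 gene was called by edgeR (lowest adjusted p = 0.786, Zscan4-ps3), nor was any of the 19515 genes, and 1203 had p under 0.05 before adjustment. DESeq2's likelihood ratio test called 39 genes and none of the 9. The fit without a filter on low counts called 86 genes, among them Zscan4-ps3 (adjusted p = 1.13e-13) and Zscan4a (adjusted p = 2.13e-05).

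**Figure D3:**
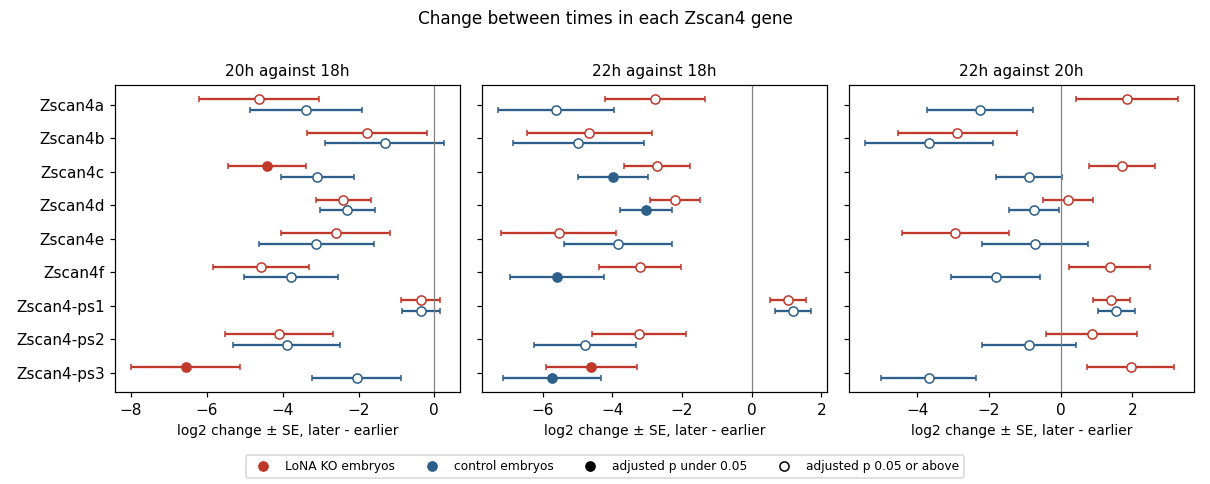
Log2 change ± SE between times for each Zscan4 gene, later minus earlier, in LoNA KO (red, upper point) and control embryos (blue, lower point). Filled points have an adjusted p under 0.05. Against 18h, every change at 20h was below 0 and at 22h every one except that of Zscan4-ps1.

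The change of Zscan4-ps1 between 18h and 22h had the opposite sign to those of the other copies, but none of its changes was called with the filter on low counts and all libraries. In KO embryos it had 58.8, 23.2 and 18.8 CPM at 18h, 18.4, 31.5 and 27.6 CPM at 20h, and 72.7, 97.9 and 54.2 CPM at 22h. In control embryos it had 48.5, 55.1 and 46.1 CPM at 18h, 21.5, 18.7 and 75.9 CPM at 20h, and 197, 98.7 and 66.1 CPM at 22h. All control values at 22h were above all those at 18h, as for 10.6% of all genes, while in KO embryos 18h library 1 overlapped the 22h values. The log2 change, 22h against 18h, was 1.05 ± 0.51 (SE) in KO embryos (adjusted p = 0.273) and 1.19 ± 0.51 in control embryos (adjusted p = 0.307) by edgeR. For 22h against 20h it was 1.41 ± 0.52 in KO embryos (adjusted p = 0.104) and 1.55 ± 0.52 in control embryos (adjusted p = 0.115). All KO values at 22h were above all those at 20h, as for 16.5% of all genes. The unfiltered edgeR fit called the change between 20h and 22h in KO (adjusted p = 0.00924) and in control embryos (adjusted p = 0.00619). It called 1903 and 996 of 33824 genes in all. With the filter, edgeR gave 1 call for 22h against 20h in KO embryos without KO library 1 or control library 3 of 20h. There 1482 of 21425 and 1539 of 21585 genes were called. It gave 1 in control embryos without control library 3 of 20h, against 525 of 21585 genes.

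The make-up of the Zscan4 reads differed between times. Zscan4-ps1 made up 5.22%, 6.62% and 3.48% of all Zscan4 counts in KO embryos at 18h, 13.1%, 54.6% and 61.5% at 20h, and 28.2%, 68.3% and 59.4% at 22h. In control embryos it made up 24.0%, 13.2% and 5.92% at 18h, 15.6%, 24.7% and 79.8% at 20h, and 76.2%, 83.3% and 86.3% at 22h. At 22h all 3 KO shares were below all 3 control shares, which was not tested. By level rather than share, the groups did not overlap for 9.23% of all genes at 22h, and they overlapped for Zscan4-ps1. At 24h the share was 0.520% and 0.0780% in KO libraries, against 13.3% and 0.324% in control libraries, so Zscan4-ps1 was no longer the leading copy in any library. How reads shared between copies were assigned is not given in the sources used here, and a share may reflect that assignment.

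**Figure D4:**
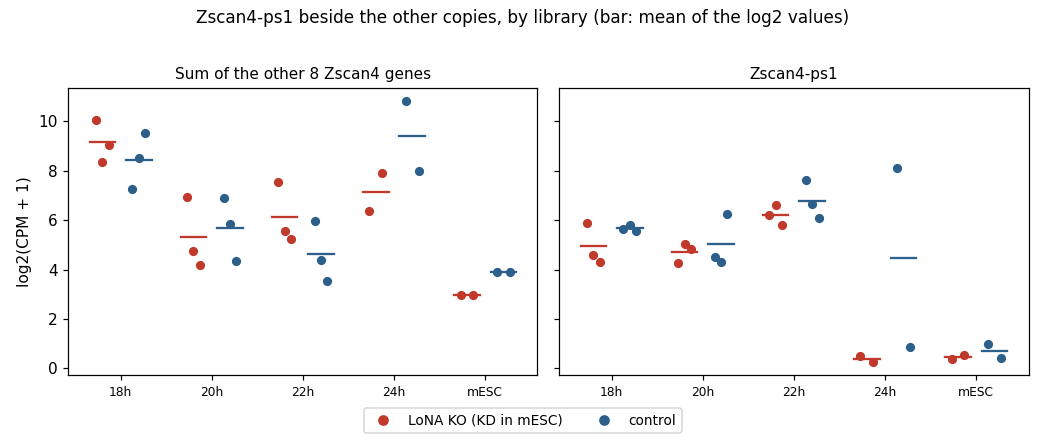
Summed level of the other 8 Zscan4 genes (left) and level of Zscan4-ps1 (right) in each library, as log2(CPM + 1), with LoNA KO or KD in red to the left of control in blue and bars at the mean of the log2 values. The sum of 8 is highest at 18h among 18h, 20h and 22h, and Zscan4-ps1 is highest at 22h.

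Among the 18 libraries the other copies varied together. The Pearson correlation of a copy's log2(CPM + 1) with the sum of the other copies was 0.94 for Zscan4c, 0.90 for Zscan4f and Zscan4-ps2, 0.87 for Zscan4a, 0.83 for Zscan4-ps3, 0.77 for Zscan4d, 0.69 for Zscan4b and 0.68 for Zscan4e. For Zscan4-ps1 it was −0.25. After the mean of each time and genotype was taken away, Zscan4c still had 0.87, and Zscan4-ps1 had −0.01. Zscan4b and Zscan4e formed the closest pair by these deviations, at 0.91. For every copy except Zscan4-ps1 itself, the sum of the other copies includes Zscan4-ps1. By levels Zscan4d had 0.77 with that sum and 0.93 with Zscan4c alone. These libraries share time, table and depth, and near-identical copies can share reads, so the correlations are descriptions only.

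The genes whose level over the 18 libraries was most like the Zscan4 sum were, among 14548 genes compared, Gm4778 (Pearson r = 0.90), AC117769.3 (0.89), Gm6346 (0.88), Gm6502 (0.88), Gm5543 (0.88), Gm43225 (0.87), Guca1a (0.87), Gm5890 (0.87), Gm7682 (0.87) and Obox4-ps27 (0.87). Guca1a encodes a guanylate cyclase activator of the retina, and most of the others have no named function in the files. By the deviations from the mean of each time and genotype, the most alike were Gm4778 (0.88), Lnpep (0.86), Gatm (0.85), Gm42662 (0.85), Fam46a (0.85), Gm21304 (0.85), Ubtfl1 (0.85), Id2 (0.84), Kank4os (0.84) and AC117769.3 (0.84). Gm4778 and AC117769.3 stood in both lists. The Zscan4 sum used here, and in the correlations of named genes below, includes Zscan4-ps1. Ubtfl1, a relative of the nucleolar factor UBTF known from preimplantation embryos, was called lower at 22h than at 18h in both genotypes. It averaged 3.40 ± 2.04 CPM at 22h, against 42.2 ± 17.0 CPM at 18h in KO embryos (adjusted p = 0.0103), and 1.32 ± 0.95 CPM at 22h, against 47.3 ± 40.6 CPM at 18h in control embryos (adjusted p = 0.00466; SD, n = 3 each, edgeR).

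Other genes of the two-cell stage were set beside the Zscan4 copies over the same times. Of 33 tested genes of the two-cell list, which was chosen with earlier results of these data known and holds no Zscan4 gene, 7 were called lower and 1 higher in control embryos at 22h against 18h, with 29 changes below 0 and a median of −2.92. Over all genes 0.605% were called lower and 0.984% higher in control embryos, with a median of −0.10. In KO embryos 6 were called lower and 1 higher, with 30 below 0 and a median of −2.56. Over all genes 1.93% were called lower and 2.03% higher in KO embryos, with a median of −0.01. Zfp352, a zinc-finger gene of the two-cell stage, averaged 34.3 ± 17.1 CPM at 22h, against 98.1 ± 18.0 CPM at 18h in KO embryos (adjusted p = 0.223). In control embryos it averaged 21.4 ± 14.3 CPM at 22h, against 161 ± 73.0 CPM at 18h (adjusted p = 0.0368, edgeR). Gm5039 and AF067061, other members of the list, were called lower in both genotypes, with adjusted p-values of 0.0144 and 0.00621 in KO embryos and 0.0201 and 0.0157 in control embryos. Arg2, the arginase of mitochondria, was the member called higher in both genotypes, with log2 changes of 1.47 in KO and 1.53 in control embryos.

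Over the 18 libraries the Pearson r of the known activators with the Zscan4 sum was 0.55 for Duxf3, −0.46 for Dppa2 and 0.01 for Dppa4, against 0.80 for Zfp352. By deviations from the mean of each time and genotype it was 0.49 for Duxf3, −0.22 for Dppa2 and 0.44 for Dppa4, against 0.62 for Zfp352. Duxf3 averaged 10.9 ± 6.37, 1.87 ± 1.60 and 9.47 ± 8.81 CPM in KO embryos at 18h, 20h and 22h, and 3.61 ± 1.72, 5.28 ± 6.61 and 4.67 ± 4.04 CPM in control embryos (SD, n = 3). At 18h all 3 KO values were above all 3 control values (adjusted p = 0.967 by edgeR, 0.0461 unadjusted), and groups did not overlap for 12.8% of all genes at that time. None of these differences was called. Of the 12 listed activators, 1 was called lower and 0 higher in KO embryos at 22h against 18h, and 0 in either direction in control embryos. Of all genes 1.93% were called lower in KO embryos and 0.605% in control embryos. The one was Obox5, an oocyte homeobox factor, which averaged 3591 ± 1317 CPM at 22h, against 8820 ± 1130 CPM at 18h (adjusted p = 0.0191). Between KO and control no member of the activator list was called at 18h, 20h, 22h or 24h. Of all genes, 0.00649%, 0.0138%, 0.00656% and 0% were called at these times, so almost no gene was.

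Among repressors of two-cell genes, Rif1 had a Pearson r of 0.58 with the Zscan4 sum by levels and 0.16 by deviations. Tcstv1 and Tcstv3, genes of the two-cell stage that carry telomere-related roles in mESC, had −0.29 and −0.01 by levels and −0.15 and −0.06 by deviations. Tcstv3 averaged 35.5 ± 17.3 CPM at 22h, against 155 ± 57.7 CPM at 20h in KO embryos (adjusted p = 0.0210, edgeR), where 4.18% of all genes were called lower and no Zscan4 copy was. Of 19 tested telomere and recombination factors, Terf1, a telomere repeat binding protein, was the one called in both genotypes at 22h against 18h, and it was higher, as were 2.03% of all genes in KO and 0.984% in control embryos. It averaged 221 ± 1.97 CPM at 22h, against 22.7 ± 1.99 CPM at 18h in KO embryos (adjusted p = 0.000482). In control embryos it averaged 221 ± 82.9 CPM at 22h, against 38.4 ± 9.48 CPM at 18h (adjusted p = 0.00474, edgeR; SD, n = 3 each).

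Genes lying between the Zscan4 copies or within 200 kb of them gave a comparison from the same stretch of chromosome. Of 43 such genes 14 were tested over time, and none was called at 22h against 18h in either genotype, where 1.93% of all genes were called lower in KO embryos and 0.605% in control embryos. The median log2 change of the 14 was −1.32 in KO embryos and −0.68 in control embryos, against −0.01 and −0.10 over all genes. The highest were Nlrp4b, an oocyte NLR gene, Gm7789, Gm45379, Gm45598 and Gm6909. Nlrp4b averaged 525 ± 281 CPM at 22h, against 336 ± 79.7 CPM at 18h in KO embryos, and 507 ± 96.96 CPM at 22h, against 378 ± 207 CPM at 18h in control embryos. Its changes had adjusted p-values of 0.445 and 0.789 by edgeR, in KO and in control embryos. A single neighbour, Gm7203, was called lower in KO embryos at 22h against 20h (adjusted p = 0.0382; 4.18% of all genes were), and it is named because it was the one called, after its values were seen.

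No called peak of any of the 4 chromatin tables of 24h embryos lay within 2 kb of a Zscan4 start, and none within 10 kb. The peak tables hold 1 value per condition, so no test was possible, and the H3K4me3 and H3K27me3 columns carry initials that were read as KO and control from the table's title and ratio. A peak within 2 kb of the start was present for 72.5% of the 20022 protein-coding genes in the H3K4me3 table, 17.8% in the H3K27me3 table, 15.8% in the AcNPM1 table and 18.2% in the AcNPM1 table of the p300 inhibitor. H3K4me3 is a mark of active and poised promoters and H3K27me3 a mark of repression laid down by PRC2. For the two-cell list, H3K4me3 peaks stood near 4 of 34 genes (11.8%), so lack of a called peak was not limited to Zscan4 among two-cell genes. How reads that match several copies were treated in peak calling is not given in the sources used here.

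**Figure D5:**
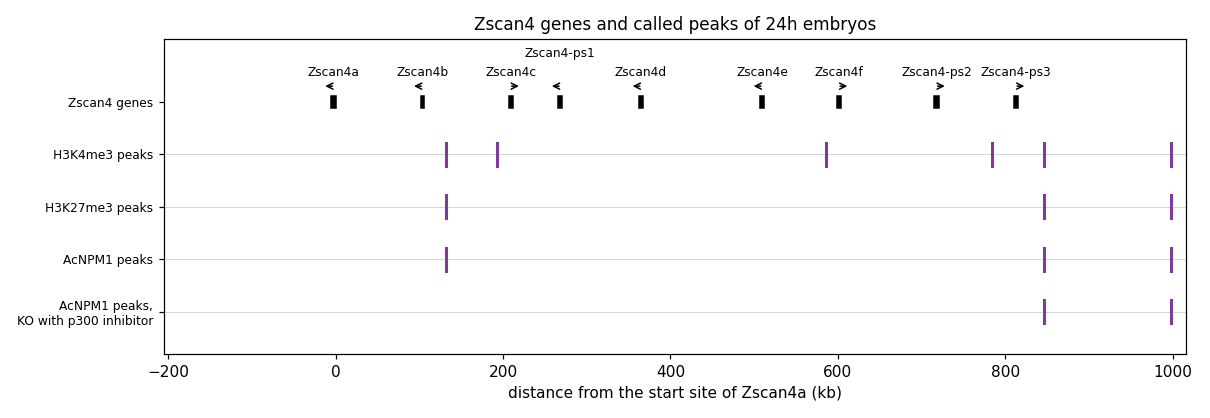
Map of the 9 Zscan4 genes (black, arrows point in the direction of transcription) and of called peaks in the 4 tables of 24h embryos (purple), as distance in kb from the start of Zscan4a. The nearest peaks were H3K4me3 peaks 13.0 and 13.1 kb upstream of Zscan4f and Zscan4c.

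The H3K4me3 table held 4 peaks within the span of the genes. Those at chr7:10992080-10992673 and chr7:11384221-11384886 lay at nearly the same distance upstream of their nearest copies, 13.1 kb from Zscan4c and 13.0 kb from Zscan4f, within the genes Gm7789 and Gm45598. The peak near Zscan4f had 73 reads in KO embryos (95% exact Poisson interval 57.2 to 91.8, counting error only) and 133 reads in control embryos (111.4 to 158), which is 1.47 RPM (reads scaled to the total) in KO and 2.00 RPM in control. The authors' log2 ratio for it was −0.44, and 7.89% of all H3K4me3 peaks had a lower ratio, against a median of −0.13 over all 48658 peaks. The peak near Zscan4c had 61 reads in KO embryos (46.7 to 78.4) and 90 reads in control embryos (72.4 to 111), with a log2 ratio of −0.14. The other H3K4me3 peaks of the span, 25.1 kb upstream of Zscan4b and 26.5 kb upstream of Zscan4-ps3, had log2 ratios of 0.07 and −0.02.

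A single region between Zscan4b and Zscan4c carried peaks in the H3K4me3, H3K27me3 and AcNPM1 tables. Its H3K27me3 peak (chr7:10930365-10930887) had 64 reads in KO embryos and 54 in control embryos, with a log2 ratio of 0.16, against a median of 0.06 over all 11638 peaks. Its AcNPM1 peak (chr7:10930209-10930904) had 87 reads in KO embryos (69.7 to 107) and 60 in control embryos (45.8 to 77.2). Scaled to total reads that was 1.44 RPM in KO and 1.87 RPM in control, a log2 ratio of −0.37, against a median of 0.14 over all 9602 peaks. A second shared region lay 35.3 kb downstream of the Zscan4-ps3 start, outside the span. Its AcNPM1 peak had 2.26 RPM in KO embryos and 1.47 RPM in control embryos (log2 ratio 0.62). In the table of the inhibitor it had 2.35 RPM in KO embryos with the p300 inhibitor and 2.29 RPM in KO embryos without it (log2 ratio 0.04), where the median over all 11745 peaks was −0.08.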

How the data were processed

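RNA was measured as raw read counts per gene, which the authors deposited as 1 table for each of 18h, 20h, 22h, 24h and mESC on build mm10. Per the submitters' processing notes, the tools were HISAT2 2.1.0, Bowtie2 2.2.3 and HTSeq 0.6.0 for RNA and bcl2fastq 2.2, Bowtie2 2.1.0 and MACS2 2.1.1 for chromatin, with no roles. The deposited RNA tables also carry the authors' mean signal and their fold (a ratio, or log2 at 24h), which were not used. The deposited peak tables give read counts, RPM (reads scaled to the total) and the authors' log2 ratio for each peak, 1 column per condition even where 3 samples are labelled, and total reads (another quantity, constant per column). The initials heading the H3K27me3 and H3K4me3 columns were assigned to KO and control by the table's title and its ratio.

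Each group has 3 columns of 4 labelled samples at 18h, 20h and 22h, 4 of 4 at 24h and 2 of 3 in mESC, and columns were assigned to groups by prefix. At 24h columns with a correlation of log2 CPM over 0.99 were summed. This rule was applied at 24h only, so the nearly identical mESC columns were kept as separate libraries. Whether libraries come from separate embryo pools is not stated, so p-values measure the spread between these libraries. The tests used edgeR 4.0.16 under R 4.3.3 (TMM, filterByExpr, quasi-likelihood test), with DESeq2 1.42.0 as an alternative. CPM are scaled within a table, and within the joint fit for times. Code was tested on simulated data. Column numbers did not pair the libraries (same-number correlations between −0.19 and 0.15 in embryos). The number of per-sample columns not used was 0. The members, gene lists and tests were chosen with earlier results of these data known. Beside the Zscan4 genes, the text names the 10 genes most like their sum, at most 6 called members of a list by smallest adjusted p, the genes Duxf3, Zfp352, Tcstv1, Tcstv3, Dppa2, Dppa4 and Rif1, and 5 neighbours by mean CPM.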

Additional observations from a re-analysis of the deposited data

How the results depend on the processing

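Counts of called Zscan4 genes depended on the filter, the tool, the threshold and single libraries. Without the filter on low counts they were 1 at 18h, 1 at 22h and 1 at 24h for KO against control. In all, 72 of 29039, 33 of 28777 and 3 of 13718 genes were called there. Over time the same setting gave 6 in KO and 6 in control embryos for 20h against 18h, against 836 and 554 of 33824 genes. For 22h against 18h it gave 8 and 8, against 1258 and 709 genes. It gave 5 in KO and 3 in control embryos for 22h against 20h, against 1903 and 996 genes. For the interaction it gave 2, against 86 genes. DESeq2 gave 3 at 24h, against 1405 of 13718 genes, and 1 in mESC, against 9513 of 28921. It gave 4 in KO and 2 in control embryos for 20h against 18h, against 1697 and 1119 of 33319 genes. For 22h against 18h it gave 5 and 7, against 1931 and 1091 genes. In control embryos for 22h against 20h it gave 1, against 1686 genes. At an adjusted p under 0.01 the count was 3 in mESC, where 10750 of 16406 genes were called. It was 0 in control and 0 in KO embryos for 22h against 18h, where 40 and 163 of 19515 genes were. In KO embryos for 20h against 18h it was 0, where 4 genes were. All 8 columns of 24h as separate libraries gave 1, where 823 of 6805 genes were called. Near-identical columns count as replicates in that setting. RLE scaling in edgeR changed no count. The cause of these differences was not tested.

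Leaving out 1 library at a time gave 0 to 6 calls in KO embryos for 20h against 18h, where 4 to 677 of all genes were called. For 22h against 18h it gave 0 to 3 in KO and 0 to 6 in control embryos, where 247 to 972 and 8 to 393 were. It gave 0 to 1 in either genotype for 22h against 20h. There 776 to 1757 genes were called in KO and 45 to 661 in control embryos. It gave 0 at 18h, 20h and 22h for KO against control, in control embryos for 20h against 18h and for the interaction. At 24h and in mESC it leaves 1 library in a group, so no count is given. The log2 ratio of the summed level then ran between −0.07 and 1.12 at 18h, −1.01 and −0.055 at 20h, −0.37 and 0.75 at 22h, −3.82 and −0.68 at 24h, and −1.06 and −0.99 in mESC. Without Zscan4-ps1 it was 1.54 at 22h, against 0.12 with it, and leaving out 1 library then gave 0.43, without KO library 1, to 2.56, without control library 1. Both settings were chosen after seeing the data. In mESC it was −1.11 by total count scaling and −1.10 with mitochondrial genes left out. With the column number as a replicate block, calls were 0 at 18h, 20h and 22h and 5 in mESC. Over all genes they were 2 of 17703, 4 of 16792, 1 of 17044 and 12409 of 16406. At 24h the columns of KO and control carry different numbers, and no block was fitted. Peak counts near Zscan4 starts stayed at 0 in all 4 tables when the distance was widened to 10 kb. The other alternatives, peaks with at least 20 reads and peaks covering the start, only narrow the 2 kb setting. They could not have raised a count of 0. Depth limits the mESC values, which rest on 3 to 55 reads per copy and column.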
